A study of Drosophila melanogaster with 12 samples.

Results

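Gene expression in fly heads was compared between the hours around dawn and the hours around dusk. The dawn group held hours 22 and 2 of a light/dark day (LD) and of the day after it, in constant darkness (DD), and the dusk group held hours 10 and 14 of the same days. The groups were set by the hour of collection alone, which gave 4 dawn and 4 dusk arrays, 8 of the 12 arrays of the series. The other 4 arrays, at hours 6 and 18, entered only where stated. Hour 0 is lights-on in LD and the corresponding hour of the former cycle in DD, so in LD each group held 1 hour of light and 1 hour of darkness.

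All groups were adult heads of y w Drosophila melanogaster, a strain that carries the yellow and white pigment mutations, and no other genotype or agent was used. Light and darkness of 12 h each had alternated for 3 days before the collections began. Each array represents a pool of roughly 100 to 200 heads that had been sieved from frozen flies. There was 1 Affymetrix array per time point, and a sample is named here by its day and hour (LD 22). The labels do not give the sex or age of the flies. Since the hours of a group stand in as replicates, a p-value sets the difference against a spread that holds the change between hours of a group and between single pools. For dawn against dusk over both days, that spread also holds any unlike difference on the days. The shift between the days common to both groups is taken out by a term for the day. Precision is limited by this number of arrays.

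The fly clock is a feedback loop of transcription. The proteins CLOCK and CYCLE activate period (per), timeless (tim), vrille (vri) and Par-domain protein 1 (Pdp1). PERIOD and TIMELESS return to the nucleus and repress that activation, while VRILLE represses and PDP1 activates Clock (Clk). In heads much of the clock RNA comes from the compound eye, and cryptochrome (cry) encodes the blue-light receptor that links the loop to light.

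The deposited values are log2 expression values per probe set, made with the RMA method. Medians of the 8 arrays lay between 5.37 and 5.40, and their pairwise correlations lay between 0.973 and 0.993. The photoreceptor arrestin Arr2 lay between 12.03 and 12.52 on all 8 arrays. Other photoreceptor genes spread more widely over them, such as the channel gene trp (9.01 to 10.33) and the G protein gene Ggamma30A (6.71 to 8.51). Arr2 alone thus does not show an even share of eye tissue. The dawn array LD 2 and the dusk array DD 14 correlated more with each other (0.993) than either did with any other array. The signal at the 5′ end of 3 control transcripts minus that at the 3′ end, a sign of RNA length, was -1.90 ± 0.42 at dawn and -1.68 ± 0.18 at dusk (SD, n = 4 each; log2). This difference had p = 0.457 in a two-sided exact permutation test over 70 splits, which can go no lower than 0.0286. It was lowest on the dawn array DD 22 (-2.45), followed by LD 2 (-2.02) and DD 14 (-1.89). The dusk arrays LD 10 and LD 14 were both the highest of the 8 for 6.09% of probe sets and both the lowest for 4.30%, and these shares recur below. Fewer cells of a type and less RNA per cell cannot be told apart in such pools.

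No probe set passed the test for dawn against dusk. With limma and Benjamini-Hochberg adjustment, 0 of 13966 probe sets (0%) had an adjusted p under 0.05, and the smallest was 0.658. At an unadjusted p under 0.05 there were 693 probe sets (4.96%), 346 higher (2.48%) and 347 lower (2.48%) at dawn, where evenly spread p-values would give 698. The median absolute difference was 0.07 log2, with a median standard error of 0.09, and 95 in 100 probe sets differed by less than 0.30 log2. The 4 dawn arrays lay above the 4 dusk arrays for 239 probe sets (1.71%) and below them for 158 (1.13%), or 2.84% in either direction. In simulated data of the same size and spread, 100 probe sets were changed by 1 log2 and 100 by 0.5 log2, with independent noise. The test called 84% of the changes of 1 log2, 47% of those of 0.5 log2 and 12 unchanged probe sets. These shares depend on how many probe sets were changed and are not the power of the test in the real data. As no probe set passed, the values below describe genes that did not pass the test, and adjusted p-values are given with them.

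Among the activators' targets, vri had the widest gap of the loop. It stood at 6.67 (LD 22), 6.52 (LD 2), 6.96 (DD 22) and 6.42 (DD 2) at dawn, against 7.69 (LD 10), 8.16 (LD 14), 7.68 (DD 10) and 8.37 (DD 14) at dusk. All dawn arrays lay below all dusk arrays, and hour 14 was the higher dusk hour on both days. The difference was -1.33 ± 0.19 log2 (SE; 95% interval -1.76 to -0.91), a level 2.52-fold lower at dawn, with a limma adjusted p of 0.658. It was -1.34 in DD and -1.33 in LD.

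The transcript of tim, whose protein pairs with PERIOD and is degraded in light, stood at 6.39 (LD 22), 5.58 (LD 2), 5.65 (DD 22) and 5.57 (DD 2) at dawn, against 6.88 (LD 10), 7.80 (LD 14), 6.34 (DD 10) and 7.25 (DD 14) at dusk. The groups overlapped only through LD 22, which lay 0.06 above DD 10 and stood apart from the other dawn arrays. The difference was -1.27 ± 0.28 log2 (limma, adjusted p = 0.917), with -1.19 in DD and -1.36 in LD. A further probe set of tim gave -1.05, and the dimmest, near 2.2 on every array, gave -0.06.

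Clk ran the other way. It stood at 4.91 (LD 22), 4.61 (LD 2), 4.92 (DD 22) and 4.81 (DD 2) at dawn, against 4.32 (LD 10), 4.05 (LD 14), 4.38 (DD 10) and 3.87 (DD 14) at dusk. Every dawn array lay above every dusk array, and hour 14 was the lower dusk hour on both days, the hour at which vri was higher. The difference was 0.66 ± 0.13 log2 (limma, adjusted p = 0.917), with 0.74 in DD and 0.57 in LD. On both days vri and tim were lower and Clk was higher at dawn, in values that did not pass the adjusted test.

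The other targets of the activators differed less. The transcript of per stood at 6.06, 6.02, 6.28 and 5.91 at dawn (LD 22, LD 2, DD 22, DD 2), against 6.31, 6.55, 5.86 and 6.57 at dusk (LD 10, LD 14, DD 10, DD 14). Its dusk value at hour 10 in DD lay below every dawn array, and the difference was -0.25 ± 0.17 log2. Pdp1 stood at 5.72, 5.59, 5.81 and 5.32 at dawn, against 5.86, 5.88, 5.62 and 6.09 at dusk in the same orders, a difference of -0.25 ± 0.13 log2 with overlapping groups. For both, hour 22 minus hour 10 was of the opposite sign (0.09 for per and 0.02 for Pdp1) to the difference over all 4 hours.

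**Figure D1:**
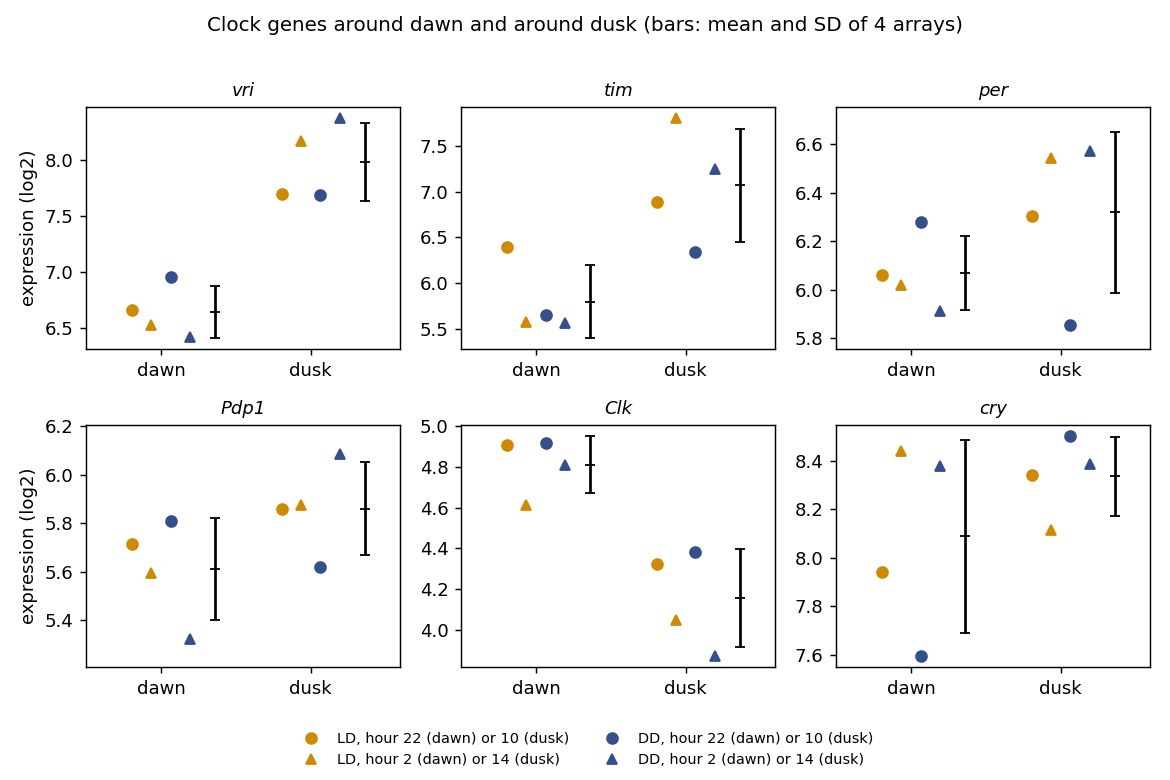
Log2 expression of 6 clock genes (y axis) on the 4 dawn arrays (left in each panel) and the 4 dusk arrays (right), with orange for LD, blue for DD, circles for hours 22 and 10, triangles for hours 2 and 14, and black marks for the mean and SD of 4 arrays. The dawn arrays lie below the dusk arrays for vri and above them for Clk, while the groups overlap for tim (through LD 22), per, Pdp1 and cry.

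The pairs of opposite hours split for cry. It stood at 7.94 (LD 22), 8.44 (LD 2), 7.59 (DD 22) and 8.38 (DD 2) at dawn, against 8.34 (LD 10), 8.11 (LD 14), 8.50 (DD 10) and 8.39 (DD 14) at dusk. The lowest values were those of hour 22 on both days, while hour 2 lay within the range of the dusk arrays. Hour 22 lay 0.65 log2 below hour 10, hour 2 lay 0.16 above hour 14, and the difference over all hours was -0.25 ± 0.19 log2. In total 15 of 20 listed clock genes were measured, and 3 of them had an unadjusted p under 0.05 (vri and tim lower, Clk higher). CLOCK's partner cyc gave -0.13 ± 0.07 and the repressor cwo -0.07 ± 0.08. The neuropeptide gene Pdf, the output signal of the lateral clock neurons, gave 0.15 ± 0.08. Of the genes for kinase, phosphatase and protein degradation steps, slmb gave -0.25 ± 0.20, and dco, jet, tws and wdb lay between 0.00 and 0.07. The PDF receptor gene Pdfr gave 0.01 ± 0.10.

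Next to vri, 9 more genes lower at dawn are described, the largest differences among genes whose groups did not overlap and whose unadjusted p was under 0.01. That choice fixes their direction on both days. Usp8, the gene of a deubiquitinating enzyme, stood at 5.92 (LD 22), 5.65 (LD 2), 5.52 (DD 22) and 5.65 (DD 2) at dawn, against 6.99 (LD 10), 7.88 (LD 14), 7.03 (DD 10) and 6.45 (DD 14) at dusk. The dawn arrays were close together and all below the dusk arrays, which spread more widely. The difference was -1.40 ± 0.22 log2, 2.64-fold lower at dawn (limma, adjusted p = 0.778).

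Slob, whose protein binds the Slowpoke potassium channel and changes its gating, stood at 8.0 (LD 22), 7.61 (LD 2), 7.65 (DD 22) and 7.83 (DD 2) at dawn, against 8.35 (LD 10), 8.71 (LD 14), 8.58 (DD 10) and 8.44 (DD 14) at dusk. The groups were 0.35 log2 apart at their nearest arrays (LD 22 and LD 10), and the difference was -0.75 ± 0.12 log2 (limma, adjusted p = 0.778). A dimmer probe set of Slob, near 6.4, gave 0.04.

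Gclm encodes the modifier subunit of glutamate-cysteine ligase, which makes the precursor of glutathione. It stood at 6.96 (LD 22), 7.28 (LD 2), 7.13 (DD 22) and 7.05 (DD 2) at dawn, against 7.69 (LD 10), 7.72 (LD 14), 7.81 (DD 10) and 7.82 (DD 14) at dusk. The dusk arrays lay within 0.13 log2 of each other and above every dawn array. The difference, -0.65 ± 0.08 log2, had the smallest unadjusted p of all probe sets (5.8e-05) and a limma adjusted p of 0.658. Gclc, the gene of the catalytic subunit of the same enzyme, gave 0.19 ± 0.18 log2 with overlapping groups.

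The light-activated channel gene trpl stood at 9.65 (LD 22), 9.46 (LD 2), 9.37 (DD 22) and 9.72 (DD 2) at dawn, against 10.17 (LD 10), 10.41 (LD 14), 10.17 (DD 10) and 9.82 (DD 14) at dusk. DD 14 was the lowest dusk array and lay 0.10 log2 above the highest dawn array, and the difference was -0.59 ± 0.13 log2. The remaining genes of this direction were the complex I gene ND-42 (-0.47), l(2)k09913 (-0.47), the proteasome gene Prosalpha5 (-0.46), CG8026 (-0.43) and the glycerol-3-phosphate dehydrogenase gene Gpdh1 (-0.42). LD 10 and LD 14 were the highest arrays of the 8 for 2 of these 10 genes. The choice of genes put the 4 dusk arrays highest in all 10. The share over all probe sets is thus no baseline for this count.

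The 10 genes chosen in the same way in the other direction, Clk included, had limma adjusted p-values of 0.917. They were BomS6, an immune-induced secreted peptide gene (0.98 ± 0.26 log2), CG6503 (0.84 ± 0.23), CG13305 (0.78 ± 0.18), Clk (0.66), CG17108 (0.54), the complex I gene ND-MWFE (0.53), rolling stone (rost, 0.51), the pherokine gene Phk-3 (0.46), CG18343 (0.42) and futsch, a microtubule-associated protein gene of neurons (0.40). In 7 of these 10, LD 10 and LD 14 were the lowest arrays of the 8. The choice of genes put the 4 dusk arrays lowest in all 10, so here too the share over all probe sets is no baseline. The difference in LD was more than 2 times that in DD for 5 of these 10 genes, and for 0 of the 10 genes lower at dawn. It was larger in LD for 8 and in DD for 2 of the genes higher at dawn. Of the genes lower at dawn it was larger in LD for 5 and in DD for 5, such as l(2)k09913 (-0.63 in DD and -0.31 in LD).

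BomS6 shows that form. It stood at 11.47 (LD 22), 11.13 (LD 2), 11.24 (DD 22) and 11.24 (DD 2) at dawn, against 9.69 (LD 10), 9.58 (LD 14), 10.99 (DD 10) and 10.90 (DD 14) at dusk. The low values belonged to the LD dusk arrays, and the difference was 0.30 in DD and 1.67 in LD. CG13305 was lower at dusk on both days. It stood at 5.82 (LD 22), 5.79 (LD 2), 5.86 (DD 22) and 6.59 (DD 2) at dawn, against 5.11 (LD 10), 5.09 (LD 14), 5.67 (DD 10) and 5.08 (DD 14) at dusk, with 0.85 in DD and 0.71 in LD. The other probe sets of futsch, both brighter, gave 0.03 and 0.01.

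**Figure D2:**
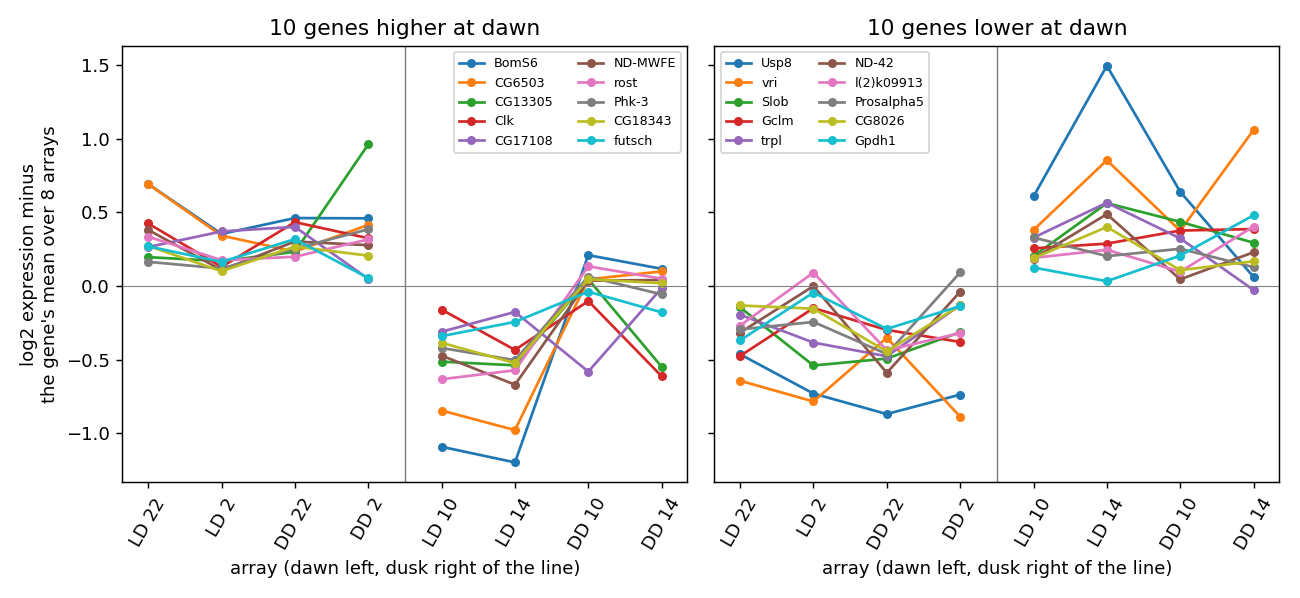
Log2 expression minus the gene's own mean over 8 arrays (y axis) on each array (x axis, dawn left and dusk right of the line) for the 10 genes higher at dawn (left panel) and the 10 lower at dawn (right panel) chosen for the largest differences. The LD 10 and LD 14 points lie lowest for 7 of the 10 genes in the left panel, and highest for 2 of the 10 in the right panel. By the choice of genes, all dusk points of a gene lie on one side of its dawn points. Shares over all probe sets are therefore no baseline for these counts.

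Gene groups were then described by the number of members on each side of 0. Each gene stood by its brightest probe set, for which 534 of 10826 genes (4.93%) had an unadjusted p under 0.05, 2.53% higher and 2.4% lower at dawn. Over all 13966 probe sets, 7276 were higher and 6690 lower at dawn, with a median of 0.01 log2. No member of any of the 18 lists passed the adjusted test.

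For the proteasome, which breaks down proteins that carry ubiquitin, every measured member lay on one side. Of 32 listed subunits 26 were measured, and 26 were lower at dawn, by 0.06 (Prosbeta4) to 0.59 log2 (Rpt2), with a median of -0.28. An unadjusted p under 0.05 was found for 6 of them: Rpt3, Rpt4, Prosalpha5, Prosalpha4, Rpn12 and Prosbeta6. Rpt4, an ATPase of the cap, stood at 6.62 (LD 22), 7.01 (LD 2), 6.33 (DD 22) and 6.78 (DD 2) at dawn, against 7.22 (LD 10), 7.41 (LD 14), 6.90 (DD 10) and 7.05 (DD 14) at dusk, which overlapped through LD 2. The median was -0.12 in DD, where 22 of 26 were lower, and -0.42 in LD, where 26 were. The mean of the 26 genes was 7.21 (LD 22), 7.18 (LD 2), 7.02 (DD 22) and 7.39 (DD 2) at dawn, against 7.56 (LD 10), 7.64 (LD 14), 7.56 (DD 10) and 7.20 (DD 14) at dusk. DD 14 thus lay among the dawn arrays, and DD 22, with the lowest 5′ signal, was the lowest. LD 10 and LD 14 were the highest of the 8 arrays for 10 of the 26 genes (38.5%, against 6.09% of all probe sets). With single arrays left out, the median ran from -0.23 (without LD 14) to -0.42 (without DD 14), and was -0.24 without DD 22. A fit that included the 5′ minus 3′ signal gave -0.21. Without LD 2 and DD 14 the median was -0.35 and 26 of 26 stayed below 0.

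Phototransduction genes, which turn light into current in photoreceptors, leaned the same way, with 16 of 20 measured members lower at dawn and a median of -0.13 log2. The channel genes trpl and trp and the G protein gene Ggamma30A had an unadjusted p under 0.05. The values of trp were 9.77 (LD 22), 9.86 (LD 2), 9.01 (DD 22) and 9.82 (DD 2) at dawn, against 10.23 (LD 10), 10.33 (LD 14), 9.92 (DD 10) and 9.77 (DD 14) at dusk. DD 22 was far below the other dawn arrays, and the difference was -0.45 ± 0.16 log2. Ggamma30A, at -0.64 ± 0.28, also had its lowest value on DD 22 (6.71, against 7.83 to 8.35 on the other dawn arrays). Without DD 22 trp differed by -0.29 and Ggamma30A by -0.34. Arr2 gave 0.00 and inaD, which scaffolds the channel complex, -0.05. Chaperones, which fold proteins, had 10 of 12 measured members lower, a median of -0.19 and 0 with an unadjusted p under 0.05. Their median was -0.28 in DD and 0.07 in LD, and over both days -0.11 without DD 22.

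Genes of energy metabolism were mixed. Of 27 measured carbohydrate genes 17 were lower at dawn, with a median of -0.18 log2. The glycolytic genes Pgk (-0.76 ± 0.31) and Eno (-0.62 ± 0.20), Taldo of the pentose phosphate pathway (-0.61) and Gpdh1 had an unadjusted p under 0.05. Eno stood at 9.79 (LD 22), 10.10 (LD 2), 9.12 (DD 22) and 10.06 (DD 2) at dawn, against 10.33 (LD 10), 10.48 (LD 14), 10.28 (DD 10) and 10.46 (DD 14) at dusk, with no overlap and its lowest value on DD 22. Without DD 22 Eno differed by -0.40 and Pgk by -0.47. The list median was -0.03 to -0.06 without DD 10, LD 14, DD 22 or LD 2, left out one at a time, and a fit that included the 5′ minus 3′ signal gave 0.00. Of 52 oxidative phosphorylation genes 34 were lower and 18 higher. With an unadjusted p under 0.05, ATPsyngamma, Cyt-c1, ND-42 and ND-39 were lower, and ND-MWFE, UQCR-6.4, UQCR-14 and ND-15 were higher.

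Detoxification genes, which encode cytochrome P450 enzymes and enzymes that attach glutathione or sugars, leaned upward. Of 66 measured members 52 were higher at dawn, with a median of 0.10 log2 on both days together, 0.10 in DD and 0.12 in LD. It was 0.05 to 0.06 without LD 22, LD 10 or DD 14 and 0.15 to 0.16 without LD 2, LD 14 or DD 10, left out one at a time, and 0.20 in a fit with the 5′ minus 3′ signal. An unadjusted p under 0.05 was found for 8 higher and 0 lower members: GstE3, GstE5, GstE6, GstE9, GstD5, Cyp6a21, Cyp4ac2 and Ugt35B1. The GstE genes are close neighbours of similar sequence and need not be independent. Cyp6a21 stood at 5.72 (LD 22), 5.05 (LD 2), 5.67 (DD 22) and 5.73 (DD 2) at dawn, against 4.45 (LD 10), 5.05 (LD 14), 5.10 (DD 10) and 4.36 (DD 14) at dusk. LD 2 was the low dawn array and the single one to overlap, and the difference was 0.80 ± 0.22 log2. Ugt35B1 differed by 0.86 ± 0.32 log2 with overlapping groups, and its dimmer probe set by 0.21. The list's mean overlapped between the groups, at 5.93 to 6.25 at dawn and 5.75 to 6.22 at dusk.

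Genes known as rhythmic in fly heads from earlier work did not share a side: 12 of 26 measured were higher and 14 lower at dawn. With an unadjusted p under 0.05, 6 were lower (Usp8, Slob, Gclm, trpl, CG11413 and speck) and 5 higher (CG13305, Cyp6a21, Ugt35B1, Achl and Fmo-2). The list may rest in part on earlier reports of data of this kind and is no independent evidence of direction. The enzyme gene speck, which encodes an arylalkylamine N-acetyltransferase, differed by -0.69 ± 0.28 log2 with overlapping groups. CG11413 differed by -0.74 ± 0.31, with its high values on LD 10 (8.59) and LD 14 (7.95) and 6.38 and 6.43 on DD 10 and DD 14.

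**Figure D3:**
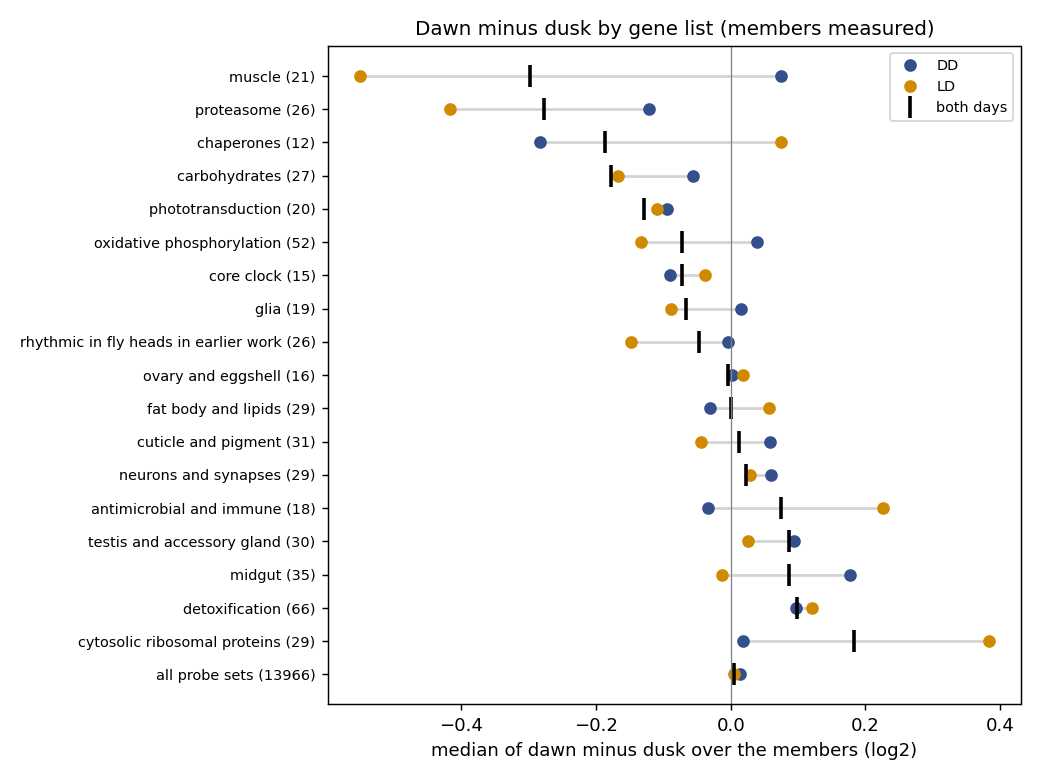
Median of dawn minus dusk in log2 over the measured members of each gene list (number in brackets; x axis), for DD (blue), LD (orange) and both days (black bar), with all probe sets as the last row. The proteasome and carbohydrate medians lie below 0 on both days, while the muscle and ribosomal protein medians leave 0 mainly in LD.

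The difference between dawn and dusk was next set side by side for the days, which share no array. Across probe sets, dawn minus dusk in DD and in LD correlated with Pearson's r of 0.114 and Spearman's rho of 0.126, and 53.9% had the same sign. These points share arrays within a day, and probe sets are not independent. Of 404 probe sets whose LD groups did not overlap and differed by at least 0.5 log2, 63.6% had the same sign in DD, with a median of 0.06 log2 in that direction. Of 266 so chosen in DD, 52.6% had the same sign in LD. In DD alone 0 probe sets (0%) passed the adjusted test, and in LD alone 2 (0.0143%) did. At an unadjusted p under 0.05 there were 462 in DD (3.31%; 1.09% higher and 2.22% lower at dawn) and 640 in LD (4.58%; 2.37% higher and 2.21% lower).

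The test of the difference itself, dawn minus dusk in DD less that in LD, called 0 of 13966 probe sets (0%), with a smallest limma adjusted p of 0.153 and 434 at an unadjusted p under 0.05 (3.11%; 1.1% with a higher and 2.01% with a lower value in DD). In simulated data with 100 probe sets changed by 1 log2 and 100 by 2, this test called 42% and 79% of them, and 9 unchanged ones. These shares too depend on how many probe sets were changed. The 3 genes with the smallest p in each direction were Act88F, Vajk3 and Cpr92F, and DptB, swa and BomS6.

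**Figure D4:**
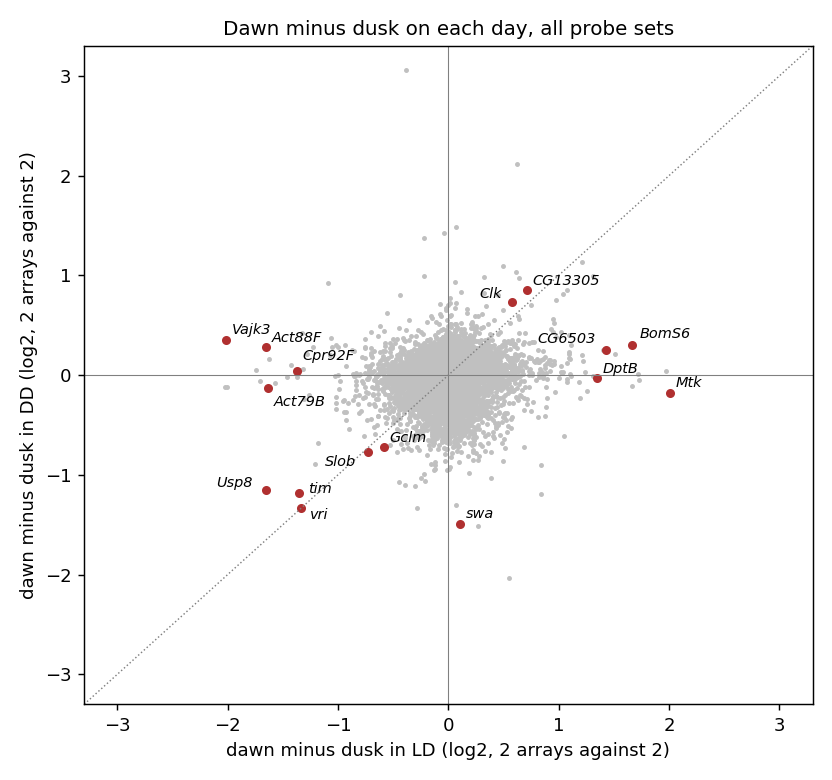
Dawn minus dusk in log2 in DD (y axis) and in LD (x axis), 2 arrays against 2 on each day, for all probe sets (grey) and 16 named genes (red); the dotted line marks equal differences. Genes such as vri, tim, Clk, Usp8, Slob and Gclm lie near the dotted line. DptB, Mtk, Act88F, Vajk3 and Cpr92F differ less in DD, by -0.18 (Mtk) to 0.35 (Vajk3), than in LD.

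Genes of antimicrobial peptides, which the fat body expresses upon infection, had differences near 0 in DD and above 0 in LD. DptB, which encodes Diptericin B, stood at 9.70 (LD 22), 9.75 (LD 2), 7.55 (DD 22) and 7.52 (DD 2) at dawn, against 8.40 (LD 10), 8.35 (LD 14), 7.57 (DD 10) and 7.55 (DD 14) at dusk. The 4 arrays of DD lay within 0.06 log2, and dawn was high in LD. The difference in DD was -0.03, and that in LD, 1.35 ± 0.09 log2, passed the adjusted test (limma, adjusted p = 0.0175). This SE and p-value rest on a spread pooled over both days, which here includes the close DD arrays. They do not measure the spread in LD alone. The difference between days had an adjusted p of 0.153. At the other hours of LD it was 10.01 (LD 6) and 9.79 (LD 18), so LD 10 and LD 14 were the low arrays of that day. The other gene that passed the test for LD was BomS6 (1.67 ± 0.13 log2, limma, adjusted p = 0.0287). It differed by 0.30 in DD, and its difference between days had a limma adjusted p of 0.587.

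The metchnikowin gene Mtk stood at 11.07 (LD 22), 11.59 (LD 2), 8.71 (DD 22) and 8.41 (DD 2) at dawn, against 9.37 (LD 10), 9.27 (LD 14), 8.49 (DD 10) and 8.99 (DD 14) at dusk. It differed by -0.18 log2 in DD and 2.01 in LD. PGRP-SB1, a recognition protein gene, differed by 0.16 in DD and 1.10 in LD. The peptide genes Listericin (-0.16 in DD and 1.26 in LD) and BomS2 (-0.12 in DD and 0.88 in LD) had the same form, while the antifungal drosomycin gene Drs differed by -0.03 in DD and 0.26 in LD. Over the 18 immune genes measured, 8 were higher at dawn in DD (median -0.03) and 14 in LD (median 0.23).

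Muscle genes lay mostly above 0 in DD and below 0 in LD, and none passed the test of the difference between days. Act88F, an actin gene of indirect flight muscle, stood at 5.94 (LD 22), 5.85 (LD 2), 5.57 (DD 22) and 5.64 (DD 2) at dawn, against 7.16 (LD 10), 7.93 (LD 14), 5.33 (DD 10) and 5.32 (DD 14) at dusk. The LD dusk arrays stood above all others, and the difference was 0.28 in DD and -1.65 in LD. Flight muscle lies in the thorax. Over 21 measured muscle genes the median was 0.07 in DD, with 7 lower, and -0.55 in LD, with 19 lower. The muscle mean was 7.49 to 7.82 at dawn, against 8.17 (LD 10), 8.49 (LD 14), 7.71 (DD 10) and 7.40 (DD 14) at dusk. LD 10 and LD 14 were the highest of the 8 arrays for 10 of the 21 genes. The median over both days was -0.30, and -0.06 without LD 2 or -0.15 without LD 14.

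Vajk3 and Cpr92F, both genes of cuticle proteins, followed the same arrays. Vajk3 stood at 6.43 (LD 22), 7.49 (LD 2), 5.75 (DD 22) and 5.63 (DD 2) at dawn, against 8.91 (LD 10), 9.03 (LD 14), 5.27 (DD 10) and 5.40 (DD 14) at dusk. Cpr92F stood at 5.48 (LD 22), 6.04 (LD 2), 5.03 (DD 22) and 4.86 (DD 2) at dawn, against 7.12 (LD 10), 7.14 (LD 14), 4.86 (DD 10) and 4.95 (DD 14) at dusk. Vajk3 differed by 0.35 in DD and -2.01 in LD, and Cpr92F by 0.04 in DD and -1.37 in LD. Both were picked for their difference between days. Of 31 cuticle and pigment genes 18 were higher in DD (median 0.06) and 14 in LD (median -0.04), with 16 higher over both days (median 0.01). LD 10 and LD 14 were the highest of the 8 arrays for 12.

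Cytosolic ribosomal protein genes had the opposite form. In DD 17 of 29 measured were higher at dawn (median 0.02), in LD 26 were (median 0.38), and LD 10 and LD 14 were the lowest arrays for 8 of the 29. RpL39, RpS29 and RpL29 had an unadjusted p under 0.05, with 0.03 to 0.14 log2 in DD and 0.95 to 1.02 in LD. Without LD 14 the median over both days was 0.03, against 0.18 with it. How far the make-up of these 2 LD dusk pools contributed to the immune, muscle, cuticle, ribosomal and proteasome values was not tested.

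**Figure D5:**
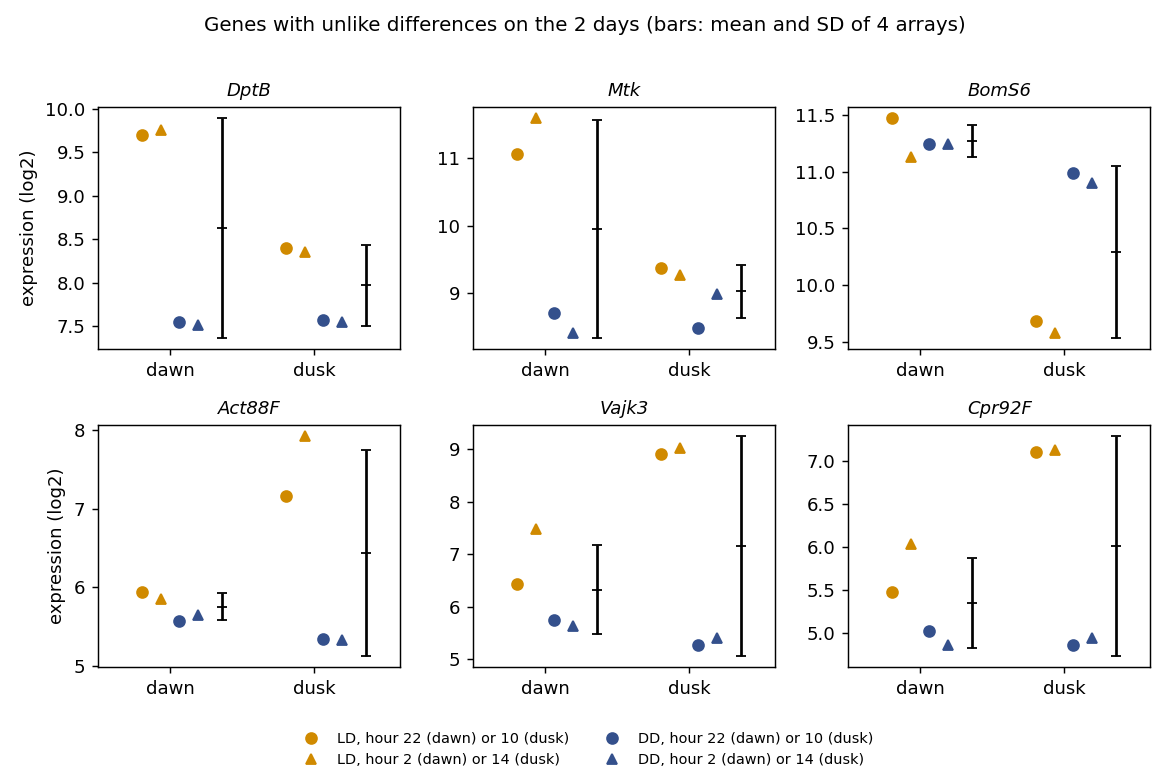
Log2 expression of 6 genes with unlike differences on the 2 days (y axis) on the 4 dawn arrays (left in each panel) and the 4 dusk arrays (right), with orange for LD, blue for DD, circles for hours 22 and 10, triangles for hours 2 and 14, and black marks for the mean and SD of 4 arrays. DptB, Mtk and BomS6 are higher at dawn in LD, and Act88F, Vajk3 and Cpr92F are higher at dusk in LD. For all 6 genes, dawn and dusk differ less in DD than in LD.

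The gene swa, which encodes a protein that places bicoid RNA in the oocyte, differed in DD instead. It stood at 3.07 (LD 22), 2.97 (LD 2), 3.26 (DD 22) and 3.45 (DD 2) at dawn, against 2.82 (LD 10), 3.01 (LD 14), 5.03 (DD 10) and 4.66 (DD 14) at dusk. The DD dusk arrays stood above the rest, with a difference of -1.49 log2 in DD and 0.11 in LD, and a second probe set differed by 0.02 over both days. Among the 8 arrays the maternal gene bcd also had its 2 highest values on DD 10 (4.03) and DD 14 (3.64), against 2.95 to 3.23 on the others. At the other hours bcd was 3.72 on LD 6 and 3.09 to 3.18 on LD 18, DD 6 and DD 18. At those hours swa was 3.76 (LD 6), 3.90 (DD 6), 3.26 (LD 18) and 2.79 (DD 18). The germ plasm gene osk was 5.84 on DD 10 and 4.54 on DD 14, against 4.64 on the dawn array DD 2. Over the 16 ovary and eggshell genes measured, 8 were higher and 8 lower at dawn in DD, and 7 were higher over both days (median 0.00).

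Lists of other body parts and cell types had medians from -0.07 (glia) to 0.09 log2 (midgut). Midgut genes had 31 of 35 members higher at dawn with a median of 0.09 log2. In DD 29 were higher and 6 lower (median 0.18), but in LD 14 were higher and 21 lower (median -0.01). Their mean was 6.31 on DD 2, against 5.93 to 5.95 on the other dawn arrays and 5.87 to 5.99 at dusk. The median over both days was 0.02 without DD 2 and 0.05 without DD 10. Testis and accessory gland genes had 26 of 30 higher with a median of 0.09, and their mean was highest on DD 22 (4.44, against 4.10 to 4.22 on the other 7 arrays). Without DD 22 the testis median was 0.02. Neuronal genes had 20 of 29 higher with a median of 0.02 and 0 with an unadjusted p under 0.05. Genes listed as glial had 9 of 19 higher and 10 lower, among them Gs2 (-0.20 ± 0.13). Of that list, CG10433 (0.52 ± 0.11) and Indy (0.45 ± 0.17, or 0.28 without LD 2) had an unadjusted p under 0.05. Fat body and lipid genes had 14 of 29 higher, with mdy (0.55) and Lip3 (0.19) at that level.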

How the data were processed

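The deposited values are log2 expression values per probe set, made by the authors with RMA per the submitters' processing notes. The RMA version, and whether other arrays were normalized with these, are not given in the sources used here. Of 14010 probe sets, 44 controls were set aside. Of the 13966 tested without a filter on level, 12443 carried 1 gene symbol, 327 several and 1196 none, and symbols were updated for 12436 through RefSeq names. No genome or sequence was used here.

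Groups came from the hour in the labels. limma 3.58.1 in R 4.3.3 (lmFit, eBayes) fitted dawn against dusk with regime as a term (5 residual degrees of freedom), and the interaction with regime in a second fit (4 residual degrees of freedom), which also gave each day's own difference. Benjamini-Hochberg adjustment covered every tested probe set, and 0.05 was the threshold. The tests were tried on simulated data. Nothing in the labels says that the pools are replicates, so p-values reflect only how these arrays vary, which may be technical.

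The hours, the 18 lists and the tests were chosen with earlier results of these data known. Named were every measured core clock gene, the 10 largest differences per direction among non-overlapping groups at an unadjusted p under 0.01, 3 genes per list with the smallest p, and the 3 smallest p per direction for the difference between days. All other genes named were chosen after their values were seen. A planned permutation test of list means was not run. Alternatives were other sets of arrays, covariates, normalizations, priors and filters, a 24 h cosine, each day alone, each pair of opposite hours, and each array left out. The omissions of LD 2 with DD 14, and of these with DD 22, were added after seeing the data.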

Additional observations from a re-analysis of the deposited data

Results flagged for a closer look

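In 160 groups of 4 arrays, 12 held 1 array far from the others, and chance flags about 1 in 20 such groups. On DD 22, the dawn array with the lowest 5′ signal, the values were low for trp (9.01, others 9.77 to 9.86), Gad1 (6.31, others 7.22 to 7.32) and CG8026 (5.86, others 6.15 to 6.18), and high for Cp7Fc (5.47, others 5.26 to 5.27). On LD 2 they were low among the dawn arrays for Pdf (6.99, others 7.27 to 7.28), Cyp6a21 (5.05, others 5.67 to 5.73) and CG10433 (8.78, others 8.98 to 9.01), and high for Indy (7.16, others 6.73 to 6.75). Among the dawn arrays tim was high on LD 22 (6.39, others 5.57 to 5.65) and CG13305 on DD 2 (6.59, others 5.79 to 5.86). Among the dusk arrays CG13305 was high on DD 10 (5.67, others 5.08 to 5.11) and cyc was low on LD 14 (6.26, others 6.44 to 6.47).

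For 4 named genes, both dawn arrays lay on one side of both dusk arrays in LD and on the other side in DD, and the test of this difference did not pass for them. The difference in DD less that in LD was 0.40 log2 for Pdfr, the PDF receptor gene, 1.93 for Act88F, 2.37 for Vajk3 and -1.38 for DptB.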

How the results depend on the processing

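For dawn against dusk, limma called 0 probe sets with adjustment, and 2 alternatives gave calls. LD alone called 2 higher (DptB and BomS6), and a 24 h cosine over all 12 arrays called 3 lower, vri (adjusted p = 4.4e-04), tim (0.022) and Gclm (0.0187). The cosine uses hours 6 and 18 as well and another model of the spread. Leaving out any single array gave 0 calls, as did leaving out LD 2 with DD 14, and these with DD 22. For the difference between days, leaving out single arrays gave 0 to 3 probe sets called higher: 3 without LD 2, Vajk3 among them, and 1 without DD 22. All 12 arrays called 1 lower, DptB (adjusted p = 0.0448). The cause was not tested. Of the 76 genes named for dawn against dusk, 64 kept their sign under every alternative and 12 turned under at least 1, per and Pdp1 at hour 22 against 10 and cry at hour 2 against 14 among them. The 6 genes named for the difference between days kept theirs, and were picked for their small p. Genes picked for groups that did not overlap could not turn with a day alone, a pair of opposite hours alone or arrays left out. These counts of kept signs were thus partly fixed by the choice of genes. No paired analysis was possible because each time point has 1 array and the labels number no replicates.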
